A study of Mus musculus with 2 samples.

Results

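The clustered let-7 genes and Mir98 are the microRNA (miRNA) genes of the mouse let-7 family that lie next to other miRNA genes on the same transcript or in the same stretch of a chromosome. They were chosen by name and position, not by their levels, although earlier results of these data were known. They number 9 of the 1973 miRNA genes counted: Mirlet7a-1, Gm24111, Mirlet7d, Mirlet7a-2, Mirlet7b, Mirlet7c-1, Mirlet7c-2, Mirlet7f-2 and Mir98. Of these, 8 were read on their own strand. Gm24111 was read on its opposite strand, because Mirlet7f-1 is annotated there, so its counts describe the Mirlet7f-1 locus. Mirlet7e also lies next to another miRNA gene, but it belongs to another part of the series and is not among the 9.

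Small RNA was sequenced from the whole thymus, where T cell precursors develop within an epithelial meshwork. The mice were 2 pups of 1 pregnancy of the strain B6NCrl at postnatal day 0, pup 3 for replicate 2 and pup 2 for replicate 1. Each pup gave its 2 thymic lobes to a single library of total RNA. No allele or treatment is given in the labels, and sex was not collected. There is 1 group and no contrast of conditions, so the comparisons are between genes within a library and between the 2 littermates, which share a donor identifier in the labels. In whole tissue, fewer cells of a type and less RNA per cell cannot be told apart.

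The tables held 1504777 reads over miRNA genes on either strand in replicate 2 and 3202488 in replicate 1. Levels are given as reads per 1000000 of these (CPM), 1 scale for both strand columns, and errors are SD over the 2 libraries (n = 2). A count of 0 allows up to 3 counts, a level of 1.99 CPM in replicate 2 and 0.937 CPM in replicate 1. These limits and all intervals cover counting error only, because reads without molecular identifiers are not independent molecules. Reads that mapped to several places were tallied apart from the genes and made up 57.5% of replicate 2 and 56.3% of replicate 1. Markers of the thymus were high in both libraries: Mir181a-1, a miRNA of thymocytes, had 30878 CPM in replicate 2 and 31777 CPM in replicate 1, and Mir205, known from epithelial cells, had 8914 CPM in replicate 2 and 7979 CPM in replicate 1.

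The let-7 miRNAs are small RNAs that guide Argonaute proteins to messenger RNAs through their seed, bases 2 to 8 of the mature strand. They accumulate as cells differentiate and repress growth genes such as Hmga2, Myc and Ras genes and Lin28. LIN28 proteins, in turn, bind the loop of let-7 precursors and block their maturation, and Lin28b is known in the mouse for its part in the fetal type of lymphocyte development. In the mouse thymus, let-7 is known to repress PLZF in maturing natural killer T cells.

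The mature strands show what the genes share and where they differ. All 9 members were matched to RefSeq hairpins (build GRCm38.p6), Gm24111 through Mirlet7f-1. Below are the mature strands from the 5′ arm of the hairpin (5p), which are the guide strands of the family, written 5′ to 3′ with the seed in capitals.
let-7a-5p (Mirlet7a-1, Mirlet7a-2): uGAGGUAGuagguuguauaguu
let-7b-5p (Mirlet7b): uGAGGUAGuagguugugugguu
let-7c-5p (Mirlet7c-1, Mirlet7c-2): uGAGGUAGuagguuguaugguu
let-7d-5p (Mirlet7d): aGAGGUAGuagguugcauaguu
let-7f-5p (Mirlet7f-1, Mirlet7f-2): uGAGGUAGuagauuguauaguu
miR-98-5p (Mir98): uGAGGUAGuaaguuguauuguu

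The seed was the same in all 6 mature strands, and the substitutions lay outside it. Relative to let-7a-5p, with positions counted from 1 at the 5′ end, let-7c-5p carried A19G and let-7f-5p carried G12A. let-7b-5p carried A17G and A19G, let-7d-5p carried U1A and U16C, and miR-98-5p carried G11A and A19U. The 9 genes therefore encode 6 guide strands. Among the 1005 RefSeq hairpins searched, let-7b, let-7d and miR-98 occurred in 1 hairpin each, and let-7a, let-7c and let-7f in 2 hairpins each. Other genes with this seed were Mirlet7e, Mirlet7g, Mirlet7i, Mir7k and Mir1961.

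The strands of the opposite arm (3p), usually the passenger strand, separate the copies of each repeated guide strand, but not all of the genes. They are shown with bases 2 to 8 in capitals, because the 3p strands of Mirlet7a-1 and Mirlet7c-2 are identical although these genes encode different guide strands.
let-7a-1-3p (Mirlet7a-1): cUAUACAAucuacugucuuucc
let-7c-2-3p (Mirlet7c-2): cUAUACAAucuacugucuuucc
let-7a-2-3p (Mirlet7a-2): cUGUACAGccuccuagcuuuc
let-7c-1-3p (Mirlet7c-1): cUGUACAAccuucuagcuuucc
let-7f-1-3p (Mirlet7f-1): cUAUACAAucuauugccuuccc
let-7f-2-3p (Mirlet7f-2): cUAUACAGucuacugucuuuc

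Thus both arms of Mirlet7a-1 and of Mirlet7c-2 occurred in 2 hairpins each. In Mirlet7a-2, Mirlet7c-1, Mirlet7f-2 and Mirlet7f-1 the 5p strand occurred in 2 hairpins and the 3p strand in 1. The counts do not say which arm a read came from.

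Whether a read of a repeated guide strand can be placed also depends on the bases beside it in the hairpin. The 5p strand of each copy is shown with the 3 neighbouring hairpin bases on either side in capitals.
Mirlet7a-1: GGAugagguaguagguuguauaguuUUA
Mirlet7a-2: GGUugagguaguagguuguauaguuUAG
Mirlet7c-2: GGGugagguaguagguuguaugguuUUG
Mirlet7c-1: GGUugagguaguagguuguaugguuUAG
Mirlet7f-2: GGAugagguaguagauuguauaguuUUA
Mirlet7f-1: GAGugagguaguagauuguauaguuGUG

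In the let-7a and let-7c pairs, the first base after the mature strand was U in both copies, and the copies differed at the second. In the let-7f pair, the first base already differed, with U in Mirlet7f-2 and G in Mirlet7f-1. Before the mature strand, the copies of each pair differed at the nearest base. The longest exact stretch shared by the copies was 23 bases in the let-7a and let-7c pairs and 22 bases in the let-7f pair.

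Counted let-7 reads were led by genes with a guide strand of their own. Mirlet7b, the source of let-7b, had 9283 CPM in replicate 2 and 9574 CPM in replicate 1, a mean of 9429 ± 206. Mirlet7d, the source of let-7d, had 5888 CPM in replicate 2 and 6602 CPM in replicate 1 (6245 ± 505). Mir98, the source of miR-98, had 3056 CPM in replicate 2 and 3304 CPM in replicate 1 (3180 ± 175). The libraries lay close together for these 3 genes, and no library of 1 gene overlapped those of the next.

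Mirlet7f-2 came next, and it was the highest of the genes with a repeated guide strand. It had 2188 CPM in replicate 2 and 2541 CPM in replicate 1 (2364 ± 250), which was 9.62 times the mean of the next gene. The remaining 5 genes lay between 97.7 and 302 CPM in every library. Mirlet7a-1 had 190 CPM in replicate 2 and 302 CPM in replicate 1 (246 ± 78.9). Mirlet7c-2 had 189 CPM in replicate 2 and 243 CPM in replicate 1 (216 ± 38.1). Mirlet7a-2 had 156 CPM in replicate 2 and 221 CPM in replicate 1 (188 ± 46.2).

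The ranges of these 3 genes over the libraries overlapped from each to the next in the order. Their order was the same within each library, although Mirlet7a-1 and Mirlet7c-2 were 286 and 285 counts in replicate 2. Mirlet7c-1 had 111 CPM in replicate 2 and 128 CPM in replicate 1 (120 ± 12.3), below both libraries of Mirlet7a-2. The locus of Mirlet7f-1, read opposite to Gm24111, was lowest, with 103 CPM in replicate 2 and 97.7 CPM in replicate 1 (100.4 ± 3.73). It was also the member whose level was higher in replicate 2.

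**Figure D1:**
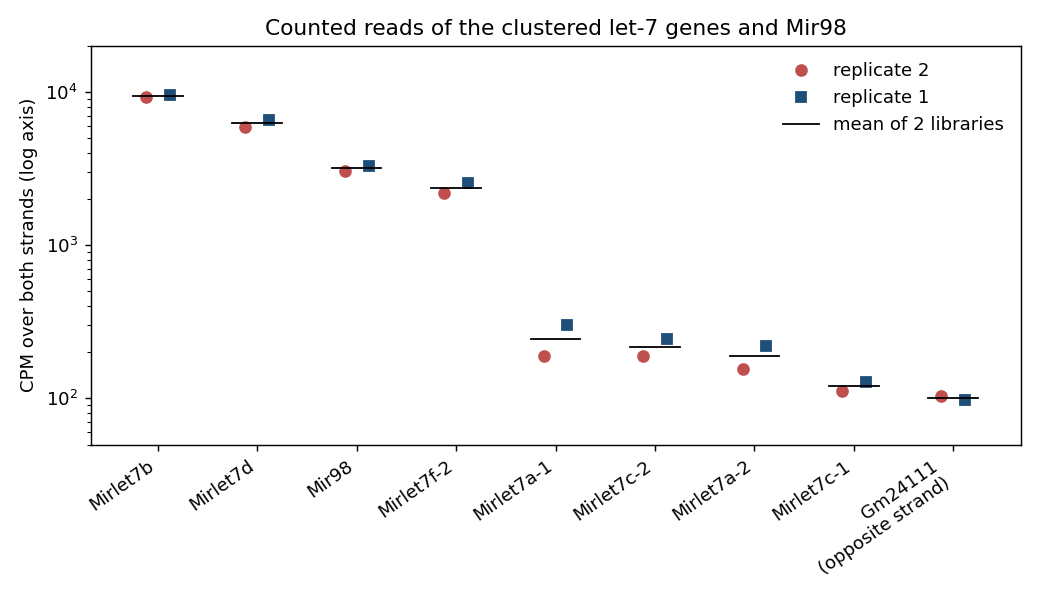
CPM of each of the 9 genes in replicate 2 (circles) and replicate 1 (squares) on a log axis, with the mean of the 2 libraries as a line. Mirlet7b, Mirlet7d, Mir98 and Mirlet7f-2 lie at 2188 CPM or more in both libraries, and the other 5 genes lie at 302 CPM or less.

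A read of a miRNA covers the mature strand, not the length of the gene, and the annotated lengths ran from 83 to 108 bases. Divided by these lengths the order of the means was unchanged. Mir98 and Mirlet7f-2 then overlapped, with 2830 and 2636 CPM per 100 bases in replicate 2 and 3059 and 3062 CPM per 100 bases in replicate 1. Mirlet7b had 10921 CPM per 100 bases in replicate 2 and 11264 CPM per 100 bases in replicate 1, and Mirlet7d had 5716 in replicate 2 and 6410 in replicate 1 on that scale. The strand other than the one read held 0 counts in both libraries for every one of the 9 genes.

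Summed, the 9 genes took 2.12% of the reads over miRNA genes in replicate 2 and 2.30% in replicate 1 (2.21% ± 0.131). Mirlet7b alone supplied 43.9% of this sum in replicate 2 and 41.6% in replicate 1, and Mirlet7d supplied 27.8% in replicate 2 and 28.7% in replicate 1. The 9 genes held 21.4% of the counted reads of all genes with the let-7 seed in replicate 2 and 21.6% in replicate 1. The solitary genes Mirlet7g and Mirlet7i held 77.4% in replicate 2 and 77.3% in replicate 1, so the 9 clustered genes together had 0.2785 ± 0.00202 times the reads of these 2. The Mirlet7e locus, read opposite to Gm25927, held 1.17% in replicate 2 and 1.085% in replicate 1. Mirlet7g and Mirlet7i each encode a guide strand of their own, whereas 6 of the 9 clustered genes encode a repeated one. Reads that mapped to several places are in no gene's count, so these are shares of counted reads only. Mir7k had 0 counts in replicate 2 and 1 count in replicate 1, and Mir1961 had 0 in both.

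The genes were also grouped by whether their guide strand is repeated. The 3 genes whose 5p strand occurred in 1 hairpin took 86.1% of the reads of the 9 genes in replicate 2 and 84.65% in replicate 1. Their levels ran from 3056 to 9574 CPM over both libraries. The 6 genes whose 5p strand occurred in 2 hairpins ran from 97.7 to 2541 CPM, so the groups did not overlap, and the 3 genes together had 5.86 ± 0.490 times the reads of the 6 others. The boundary between the groups was a small gap, since the mean of Mir98 was 1.35 times that of Mirlet7f-2. The widest gap in the order lay within the repeated genes, between Mirlet7f-2 and Mirlet7a-1, and without Mirlet7f-2 these ran from 97.7 to 302 CPM.

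The longest exact stretch that a hairpin shared with any other RefSeq hairpin was shorter in the 3 genes than in the 6. This largely restates the grouping, since a 5p strand of 22 bases found in another hairpin is itself a shared stretch of that length. It was 14 bases in Mirlet7d, 17 in Mir98 and 19 in Mirlet7b. It was 22 bases in Mirlet7f-2 and Mirlet7f-1, which lay at opposite ends of the repeated genes, 23 in Mirlet7a-2 and Mirlet7c-1, and 26 in Mirlet7a-1 and Mirlet7c-2, which share it with each other.

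**Figure D2:**
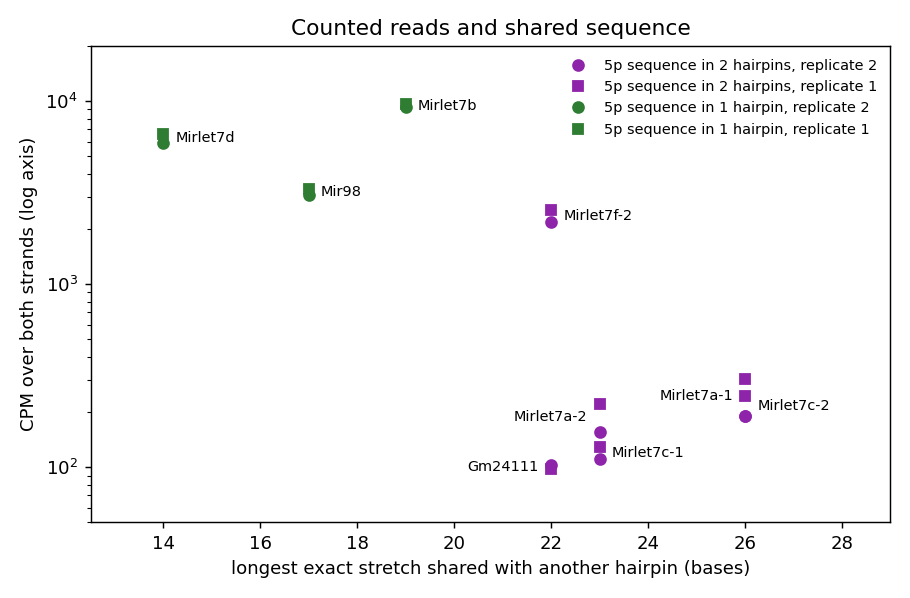
CPM of each of the 9 genes on a log axis against the longest exact stretch, in bases, that its hairpin shares with another RefSeq hairpin (Gm24111 stands for Mirlet7f-1); circles are replicate 2 and squares replicate 1, and colour gives whether the 5p strand occurs in 2 hairpins or in 1. The genes at 19 bases or fewer lie at 3056 CPM or more, and of those at 22 bases or more all but Mirlet7f-2 lie at 302 CPM or less. A gene whose 5p strand occurs in 2 hairpins has a shared stretch of at least 22 bases by definition.

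Reads that mapped to several places were in the multimapping total and in no gene's count. How many of them were let-7 reads cannot be read from the tables. In all they were 88.3 times the reads of the 9 genes in replicate 2 and 81.3 times in replicate 1. The counts therefore rank genes and not the mature miRNAs let-7a, let-7c and let-7f against let-7b, let-7d and miR-98, and the part of multimapping in the order of the genes was not tested.

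The counted genes whose symbol had a single hairpin in the RefSeq set searched were also compared, read on their own strand. Among these, shared sequence went with a lower median of the detected genes, but not with a lower share detected or at high level. The hairpin shared a window of 22 bases with another hairpin of the set in 90 genes, 5 of the members among them, and shared none in 779 genes. Some counted genes, such as Mir125b-2, were outside this comparison. A gene that shared none within the set could still share sequence with a hairpin that was not searched. At least 10 counts in both libraries were found for 42.2% of the genes with a shared window and 28.1% of those without. The median of these detected genes was 95.55 CPM with a shared window and 252 CPM without. A mean of 1000 CPM was reached by 9 of the 90 genes and 67 of the 779. The groups were not matched for other traits of their genes. Genes with high numbers in their names, such as Mir6896 and Mir7092, lay mostly in the group without a shared window. The part of shared sequence in these shares was therefore not tested.

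The copies of each pair were counted unequally, to different degrees. Mirlet7f-2 had 21.2 times the reads of the Mirlet7f-1 locus in replicate 2 (exact 95% interval 18.1 to 25.1) and 26.0 times in replicate 1 (23.2 to 29.2). Per annotated length, with the 97 bases of Gm24111 used for that locus, it had 24.8 times in replicate 2 and 30.4 times in replicate 1. Mirlet7a-1 had 1.22 times the reads of Mirlet7a-2 in replicate 2 (1.025 to 1.46) and 1.37 times in replicate 1 (1.24 to 1.51). Mirlet7c-2 had 1.71 times the reads of Mirlet7c-1 in replicate 2 (1.405 to 2.08) and 1.90 times in replicate 1 (1.68 to 2.14). Every one of these intervals lay above 1, and of the 3 pairs the let-7f pair was the most uneven in both libraries. Reads that fit both copies alike are in no gene's count. The ratios therefore cover only reads that could be placed, and the bases that tell the copies apart differ between the pairs. How much RNA each copy gives cannot be read from them.

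The hairpins of the let-7f pair are given whole, since their guide strands are identical and their counts were the farthest apart of the 3 pairs. Capitals mark the 5p and the 3p strand.
Mirlet7f-2: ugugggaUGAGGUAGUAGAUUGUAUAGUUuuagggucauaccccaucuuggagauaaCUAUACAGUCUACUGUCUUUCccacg
Mirlet7f-1: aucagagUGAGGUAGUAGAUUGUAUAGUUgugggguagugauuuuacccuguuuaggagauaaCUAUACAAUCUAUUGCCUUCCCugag
Mirlet7f-2 lies at chrX:151912346-151912428 on the plus strand, and Mirlet7f-1 at chr13:48537829-48537917 on the minus strand (GRCm38).

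Both let-7f hairpins hold GGAG in the loop between the arms, the letters that the zinc knuckles of LIN28 are known to bind. On the RNA strand, GGAG occurred in 6 of the 9 hairpins, in each of them between the mature strands. These were the hairpins of Mirlet7a-1, Mirlet7a-2, Mirlet7c-1, Mirlet7d, Mirlet7f-1 and Mirlet7f-2. It did not occur in those of Mirlet7b, Mirlet7c-2 and Mir98. Of all 1005 RefSeq hairpins, 44.5% hold these letters somewhere. Genes with high and with low counts were found on both sides of this division, since Mirlet7d holds GGAG and Mirlet7b and Mirlet7c-2 do not.

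Genes of the same cluster were counted very unequally. On chromosome 13, Mirlet7a-1 (ENSMUSG00000065421.2, 48538179 to 48538272, minus strand), Mirlet7f-1 and Mirlet7d (ENSMUSG00000065453.1, 48536012 to 48536114, minus strand) lie within 2261 bases. Mirlet7a-1 and Mirlet7d overlap an exon of the long noncoding RNA 6720427I07Rik. Gm24111 (ENSMUSG00000093232.1, 48537825 to 48537921) is annotated on the plus strand where Mirlet7f-1 lies, and its interval also overlaps an exon of 6720427I07Rik, on the opposite strand. Mirlet7d had 31.0 times the reads of Mirlet7a-1 in replicate 2 (27.5 to 34.97) and 21.9 times in replicate 1 (20.5 to 23.4), or 28.3 and 20.0 times per annotated length. It had 57.2 times the reads of the Mirlet7f-1 locus in replicate 2 (48.8 to 67.4) and 67.55 times in replicate 1 (60.4 to 75.8).

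On chromosome 15, Mirlet7c-2 (ENSMUSG00000065608.1, 85706603 to 85706697) and Mirlet7b (ENSMUSG00000065564.1, 85707319 to 85707403) lie 621 bases apart on the plus strand, and both overlap an exon of the noncoding transcript Lncppara. Mirlet7b had 49.0 times the reads of Mirlet7c-2 in replicate 2 (43.6 to 55.3) and 39.4 times in replicate 1 (36.7 to 42.3). Per annotated length it had 54.8 times in replicate 2 and 44.0 times in replicate 1. In both of these clusters the gene with the most reads was the one whose guide strand occurred in 1 hairpin.

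On chromosome X the genes were closer in level. Mirlet7f-2 (ENSMUSG00000065602.1) and Mir98 (ENSMUSG00000065536.2, 151913214 to 151913321, plus strand) lie 785 bases apart in an intron of Huwe1, which encodes a ubiquitin ligase. Mir98 had 1.40 times the reads of Mirlet7f-2 in replicate 2 (1.34 to 1.46) and 1.30 times in replicate 1 (1.26 to 1.34). Per annotated length the ratio was 1.07 in replicate 2 and 0.999 in replicate 1, so the libraries lay on either side of 1 on that scale.

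The last 2 members stand beside genes of the miR-99/100 and miR-125 families, an arrangement in which the mouse counterparts of worm let-7 and lin-4 lie together. Mirlet7a-2 (ENSMUSG00000092770.1, chromosome 9, 41536716 to 41536811, plus strand) lies in an intron of 3110039I08Rik, 5211 bases from Mir100 and 45114 bases from Mir125b-1. Mir100 had 10695 CPM in replicate 2 and 8109 CPM in replicate 1, and Mir125b-1 had 375 CPM in replicate 2 and 390 CPM in replicate 1. Mirlet7a-2 had 0.0145 times the reads of Mir100 in replicate 2 (0.0127 to 0.0165) and 0.0272 times in replicate 1 (0.0252 to 0.0293). It had 0.414 times the reads of Mir125b-1 in replicate 2 (0.354 to 0.483) and 0.567 times in replicate 1 (0.516 to 0.622).

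Mirlet7c-1 (ENSMUSG00000065557.2, chromosome 16, 77599657 to 77599750, plus strand) lies in an intron of the host transcript Mir99ahg, 656 bases from Mir99a and 46522 bases from Mir125b-2. Mir99a had 15983 CPM in replicate 2 and 11162 CPM in replicate 1, and Mir125b-2 had 182 CPM in replicate 2 and 171 CPM in replicate 1. Mirlet7c-1 had 0.00694 times the reads of Mir99a in replicate 2 (0.00593 to 0.00809) and 0.0115 times in replicate 1 (0.0104 to 0.0127). It had 0.610 times the reads of Mir125b-2 in replicate 2 (0.500 to 0.742) and 0.750 times in replicate 1 (0.658 to 0.854). In both clusters the let-7 gene had the fewest reads of the 3 genes in each library.

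**Figure D3:**
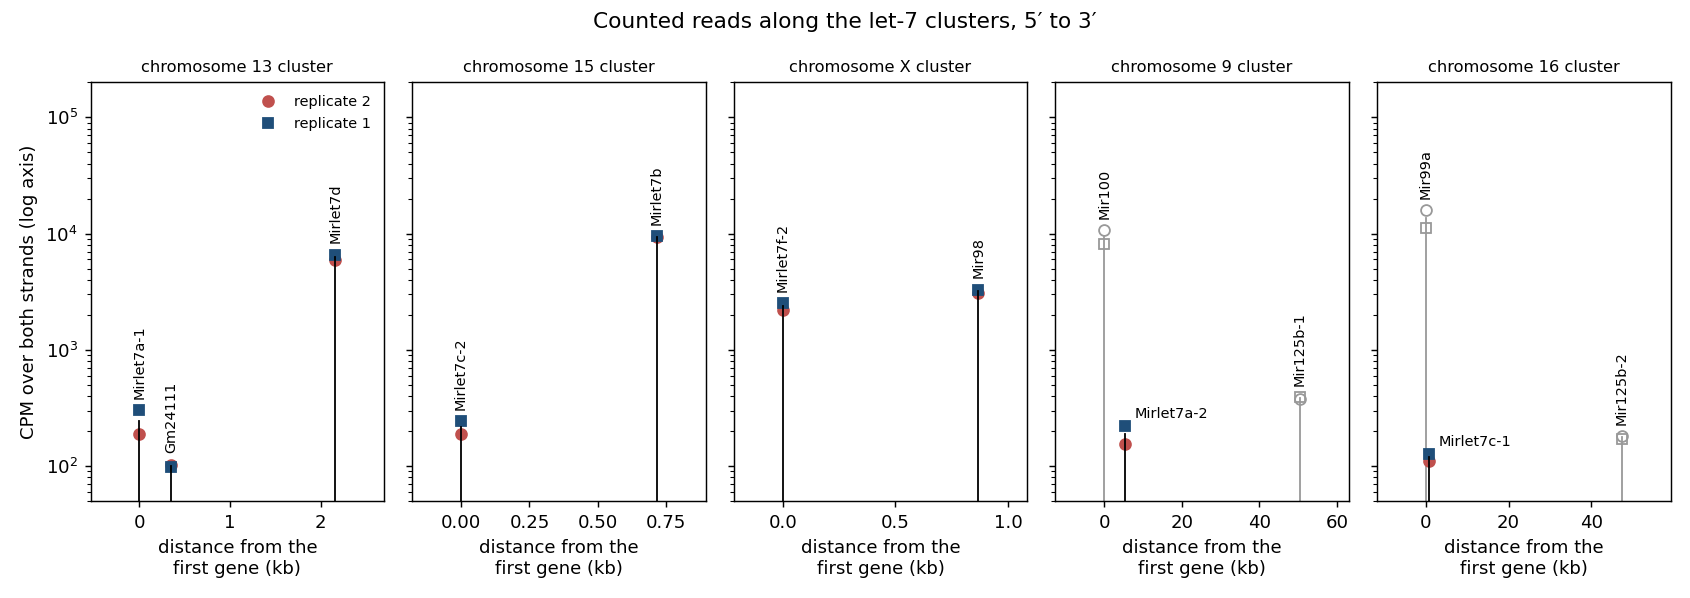
CPM on a log axis of each gene along its cluster, by distance in kilobases from the first gene in the direction of transcription, for the clusters on chromosomes 13, 15, X, 9 and 16. Filled circles (replicate 2) and filled squares (replicate 1) are members, Gm24111 standing for Mirlet7f-1, and open grey symbols are the neighbours Mir100, Mir125b-1, Mir99a and Mir125b-2. The distance axes differ between panels, and Mirlet7d and Mirlet7b stand above the genes that precede them.

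Between the littermates, most of the 9 genes had a lower level in replicate 2. The exact binomial test, which sets the reads of 1 library against those of the other after TMM scaling and knows counting error only, called 7 of the 9 lower in replicate 2 and 0 higher at an adjusted p of 0.05. Over all 305 features tested (a feature is a gene on 1 strand), the same test called 23.0% lower and 20.3% higher, and 43.3% in either direction. The median log2 ratio of replicate 2 over replicate 1 was -0.27 for the 9 genes and -0.02 for all features tested. The log2 ratio was below 0 for 8 of the 9 genes and for 52.8% of all features.

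Under each other scaling, filter and choice of strand, 7 of the 9 genes were again called lower in replicate 2 and 0 higher. With library totals in place of TMM the test called 42.6% of all features, 25.2% higher and 17.4% lower (77 and 53 features, against 62 and 70 with TMM). With DESeq2 size factors it called 41.0%, 21.0% higher and 20.0% lower. With at least 1 count in both libraries it called 24.5%, 10.1% higher and 14.4% lower, and with at least 100 counts 59.7%, 28.9% higher and 30.8% lower. Gene-strand features alone gave 43.4%, 20.0% higher and 23.4% lower, and unstranded counts gave 43.1%, 20.1% higher and 23.0% lower. The share of all features called was higher where more counts were required.

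A negative binomial test in edgeR, which adds the spread shared by all features, called 0 of the 9 genes and 1 of the 305 features (0.328%), which was higher in replicate 2 (0.328% higher and 0.00% lower). At an unadjusted p under 0.05 it picked 1 of the 9 genes and 15 of the 305 features. The spread in this test was estimated from the same 2 libraries, taken as replicates of each other. That spread already holds the differences under test, so the low number of calls is no check on the exact binomial calls. Both tests compare 2 libraries, not conditions, and with 1 library per pup there is no replicate check.

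The largest differences were those of the let-7a genes. Mirlet7a-1 was counted 286 times in replicate 2 and 966 times in replicate 1, and its log2 ratio was -0.73 (adjusted exact binomial p = 3e-14, with an exact 95% counting interval of -0.93 to -0.54). Mirlet7a-2 was counted 234 times in replicate 2 and 707 times in replicate 1, and its log2 ratio was -0.57 (-0.79 to -0.36, adjusted exact binomial p = 3.1e-07). Mirlet7c-2 followed with -0.43 (-0.63 to -0.23), then Mirlet7f-2 with -0.28 (-0.34 to -0.22), Mirlet7d with -0.23 (-0.27 to -0.19), Mir98 with -0.18 (-0.23 to -0.13) and Mirlet7b with -0.11 (-0.14 to -0.08). Of the 7 called, the 3 genes with a guide strand of their own had the smallest differences. They also had the most reads, and with more reads a smaller difference is called. Of all members, the smallest difference was that of the Mirlet7f-1 locus (log2 ratio 0.01), which has a repeated guide strand and was not called.

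Mirlet7c-1 and the Mirlet7f-1 locus were not called. Mirlet7c-1 was counted 167 times in replicate 2 and 411 times in replicate 1, with a log2 ratio of -0.27 (-0.54 to -0.01, adjusted exact binomial p = 0.083). The Mirlet7f-1 locus was counted 155 times in replicate 2 and 313 times in replicate 1, with a log2 ratio of 0.01 (-0.28 to 0.29, adjusted exact binomial p = 0.98). They had the fewest reads of the 9.

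The 4 neighbours were divided. Mir99a and Mir100 were higher in replicate 2, with log2 ratios of 0.45 (0.43 to 0.48) and 0.33 (0.31 to 0.36), whereas Mir125b-1 (-0.12, -0.26 to 0.03) and Mir125b-2 (0.02, -0.19 to 0.24) were not called. The ratio of Mirlet7a-2 to Mir100 and that of Mirlet7c-1 to Mir99a were both lower in replicate 2, and their counting intervals in the 2 libraries, given above, did not overlap. Of the solitary genes, Mirlet7g was lower in replicate 2 (-0.33) and Mirlet7i was higher (0.25).

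**Figure D4:**
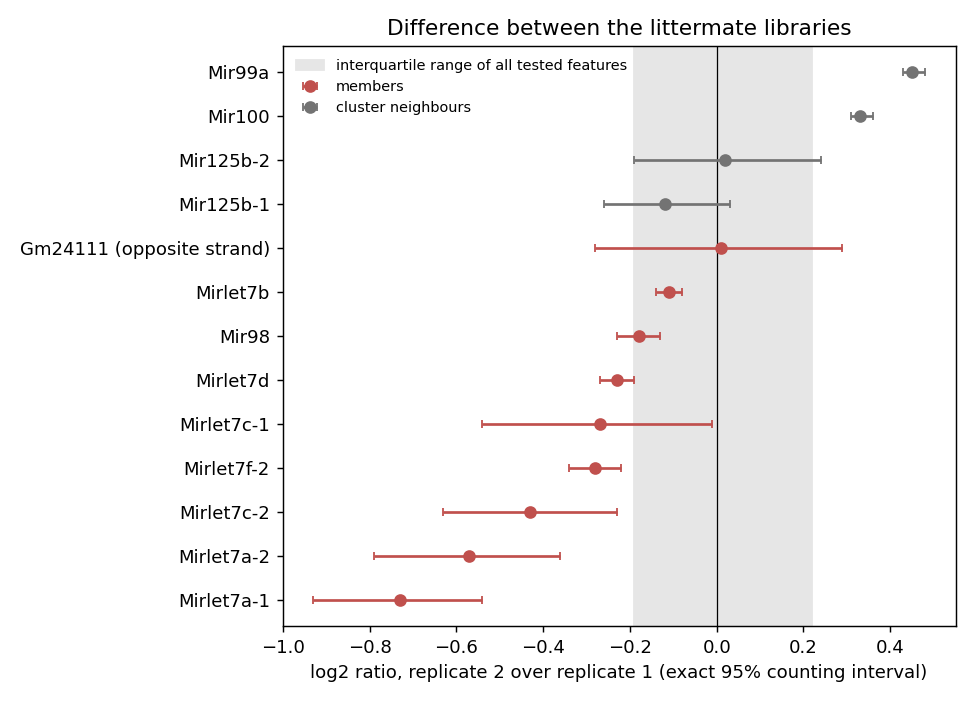
Log2 ratio of replicate 2 over replicate 1 after TMM scaling, with exact 95% counting intervals, for the 4 neighbours (grey) and the 9 members (red), with the interquartile range of all 305 tested features shaded. Of the members, 8 lie left of 0, while Mir99a and Mir100 lie right of it.

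The features nearest to each gene in level, by Euclidean distance of log2 CPM over the 2 libraries, were sought among the features outside the 9. Mir98 was nearest to Mir361, at a distance of 0.0483, which had 2963 CPM in replicate 2 and 3263 CPM in replicate 1. The Mirlet7f-1 locus was nearest to Mir194-2 (0.0770), and Mirlet7b to the reads opposite to Gm24083 (0.0957). Mirlet7c-1 was nearest to Mir3071 (0.154), Mirlet7f-2 to Mir324 (0.158), Mirlet7d to Mir375 (0.231) and Mirlet7a-2 to Mir450b (0.234). Mir7-1 was nearest to both Mirlet7c-2 (0.204) and Mirlet7a-1 (0.442). With 2 libraries, this measure gives likeness of level and nothing further.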

How the data were processed

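Small RNA of 2 newborn thymus libraries was analysed. Per the deposited text files, the authors mapped reads to mm10 and used GENCODE M4 (aligner and counter not given in the sources used here). The deposited values are raw counts, in a separate table for each library, with 3 unnamed count columns. Judged from the values, these are both strands together, the gene's own strand and the opposite one, the first equalling the sum of the other 2 throughout. Rows that name no gene (multimapping, unmapped, unassigned) held 69.2% of the reads of replicate 2 and 69.9% of those of replicate 1, and stayed out of library sizes. Of 1973 identifiers, 1894 matched GENCODE M21, a later release on the same build, which gave symbols, positions and overlapping genes.

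Each gene on each strand was a feature, tested where both libraries reached 10 counts. TMM factors came from edgeR 4.0.16 (R 4.3.3), and the exact binomial test (two-sided, scipy 1.17.1, Python 3.11.15) was adjusted by Benjamini-Hochberg over all features at 0.05. This test was tried on simulated data that held counting error only, which does not cover the spread between pups. Ratios between genes have exact conditional intervals. Sequences are from RefSeq (GRCm38.p6), where shared strands and windows of 22 bases were sought in 1005 hairpins. The replicates are 2 pups of 1 pregnancy. Exact binomial p-values set the difference between these 2 libraries against counting error only, not against the spread between pups. Alternatives were DESeq2 1.42.0 size factors, library totals, filters of 1 and 100 counts, gene-strand features alone, unstranded counts, a negative binomial test, other denominators, annotated length, and each library alone.

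The text names the 9 members, their 4 neighbours, other genes with the same seed, and the nearest feature to each member. The members, lists and tests were chosen with earlier results of these data known.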

Additional observations from a re-analysis of the deposited data

How the results depend on the processing

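The number of members called between the littermates was 7 in the main test and under the DESeq2 and library-total scalings, filters of 1 and 100 counts, gene-strand features alone and unstranded counts, all lower in replicate 2, and 0 under the negative binomial test. The negative binomial test took its spread from the same 2 libraries, so its 0 is no check on the 7 calls. The log2 ratio of Gm24111, which was not called, was -0.03 with features of at least 1 count. The share of the 9 members was 2.58% over gene-strand reads and 0.672% over all reads of the library. Per annotated length, the 3 members with a guide strand of their own had 5.37 times the reads of the 6 others, Mir98 had 1.04 times those of Mirlet7f-2, and Mirlet7c-1 had 0.513 times those of Mir125b-2. In each library alone the share ran from 2.12 to 2.30% and the ratio of the 3 to the 6 members from 5.51 to 6.21. The ratio ran from 21.9 to 31.0 for Mirlet7d over Mirlet7a-1, from 57.2 to 67.55 for Mirlet7d over Gm24111, from 39.4 to 49.0 for Mirlet7b over Mirlet7c-2 and from 1.30 to 1.40 for Mir98 over Mirlet7f-2. It ran from 0.0145 to 0.0272 for Mirlet7a-2 over Mir100, from 0.414 to 0.567 for Mirlet7a-2 over Mir125b-1, from 0.00694 to 0.0115 for Mirlet7c-1 over Mir99a and from 0.610 to 0.750 for Mirlet7c-1 over Mir125b-2. The test between the littermates has no value with a library left out. No paired analysis was possible because there is 1 group. Low counts limit the precision of the 5 lowest members, and the part of multimapping reads in the levels was not tested.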
